A study of Mus musculus with 6 samples.

Results

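The nuclear-encoded subunits of the mitochondrial respiratory chain and ATP synthase were followed in mouse liver after 90 days of oral cadmium. Members were rows whose gene symbol starts with Nduf followed by a, b, c, s or v and a digit, is Sdha to Sdhd, or starts with Uqcr, with Cox4 to Cox8 plus a letter, or with Atp5. Symbols containing -ps were left out, which removed 6 pseudogenes related to Uqcrh, Atp5k and Atp5l. The rule found 81 of the 34352 genes in the deposited table with symbols: 37 of complex I, 4 of complex II, 8 of complex III, 15 of complex IV and 17 named for ATP synthase. No expression value entered the rule. Its names do not cover every subunit: Cyc1, Ndufab1 and Usmg5 do not match it. Ndufa4 is counted with complex I by its name although the protein is now placed in complex IV, and Atp5s and Atp5sl carry the ATP synthase prefix without being subunits.

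The respiratory chain passes electrons from NADH through complex I, and from succinate through complex II, to ubiquinone, then through complex III and cytochrome c to complex IV, where oxygen is reduced. Complexes I, III and IV pump protons across the inner mitochondrial membrane, and ATP synthase uses the returning protons to make ATP. Most subunits are encoded in the nucleus and assembled with a small set made inside the mitochondrion. Hepatocytes are rich in mitochondria and use them for urea synthesis, gluconeogenesis and fatty acid oxidation. Cadmium is a toxic metal held in liver largely by metallothioneins.

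The samples were livers of male wild-type C57BL/6 mice that were 6 to 8 weeks old per the labels. The control group received 0 mg/kg CdCl2 per day and the cadmium group 20 mg/kg per day, both by gavage, to day 90. Each group has 3 libraries, and each batch number from 1 to 3 holds 1 library of each group. The labels name 6 mice per group and do not say which mice gave which library, so p-values measure only the spread between these libraries. RNA was fragmented and incubated with an antibody against N6-methyladenosine (m6A), and the libraries are the input fraction, described as unbound RNA. A lower level and a larger antibody-bound share therefore cannot be told apart here.

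The 6 libraries hold between 42115960 and 68587128 reads recovered from the deposited log2 values. Between 0.551% and 0.683% of the reads fell on the members, and the median tested member had 2226 to 3708 reads per library. Control replicate 1 and cadmium replicate 2 stood apart from the other libraries: Alb took 2.87% and 2.91% of their reads against 4.89% to 5.06% elsewhere, and the mitochondrial rRNA gene mt-Rnr2 took 0.203% and 0.219% against 0.714% to 1.06%. In control replicate 1 the 10 genes with most reads took 44.6% of all reads, against 33.3% to 35.9% in the others. All 6 libraries held Xist, at 19.7 to 25.8 FPKM in control and 27.1 to 35.5 in cadmium, with the Y-linked genes Uty and Kdm5d at or near 0. In both groups this goes against the male sex in the labels. The liver label was checked against 12 hepatocyte markers: 11 were in the table and all 11 passed the filter on low values, while 6 skeletal and heart muscle markers summed to at most 0.109 FPKM.

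Promoter windows of 4 members are printed first, because regulators of this gene family act through short motifs near the start site. They are Ndufs7, the member of smallest p-value, Cox6a1, the most abundant member, Sdhb, a catalytic subunit with near-equal group means, and Atp5j, whose window is shared with a regulator gene. Each runs from 250 bases before to 50 bases after the RefSeq start (GRCm38.p6, 5′ to 3′ on the strand of the gene). Capitals mark matches to GCATGCGC (the NRF1 motif), CCGGAAG (the ETS-type motif of GABPA) and AAGATGGCG (the YY1 motif) on either strand. The ERR motif AAGGTCA was searched too and is in none of these 4 windows.
Ndufs7, chr10:80249199-80249498, plus strand: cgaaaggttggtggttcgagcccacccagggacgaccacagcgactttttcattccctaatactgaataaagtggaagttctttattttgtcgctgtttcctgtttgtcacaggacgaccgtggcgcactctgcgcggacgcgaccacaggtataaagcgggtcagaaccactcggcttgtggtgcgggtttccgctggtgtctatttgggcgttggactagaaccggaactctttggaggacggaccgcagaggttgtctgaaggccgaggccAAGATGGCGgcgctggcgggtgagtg
Cox6a1, chr5:115348909-115349208, minus strand: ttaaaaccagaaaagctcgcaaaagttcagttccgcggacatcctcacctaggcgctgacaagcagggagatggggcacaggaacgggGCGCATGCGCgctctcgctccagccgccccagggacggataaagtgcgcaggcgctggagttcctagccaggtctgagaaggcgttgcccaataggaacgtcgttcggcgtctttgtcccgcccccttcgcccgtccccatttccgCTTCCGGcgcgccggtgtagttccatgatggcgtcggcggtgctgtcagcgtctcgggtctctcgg
Sdhb, chr4:140961021-140961320, plus strand: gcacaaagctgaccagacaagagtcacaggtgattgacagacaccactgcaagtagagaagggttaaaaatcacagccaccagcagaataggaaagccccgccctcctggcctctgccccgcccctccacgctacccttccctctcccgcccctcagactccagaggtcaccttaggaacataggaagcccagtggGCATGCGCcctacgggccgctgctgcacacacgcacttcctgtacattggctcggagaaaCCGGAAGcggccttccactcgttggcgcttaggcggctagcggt
Atp5j, chr16:84834927-84835226, minus strand: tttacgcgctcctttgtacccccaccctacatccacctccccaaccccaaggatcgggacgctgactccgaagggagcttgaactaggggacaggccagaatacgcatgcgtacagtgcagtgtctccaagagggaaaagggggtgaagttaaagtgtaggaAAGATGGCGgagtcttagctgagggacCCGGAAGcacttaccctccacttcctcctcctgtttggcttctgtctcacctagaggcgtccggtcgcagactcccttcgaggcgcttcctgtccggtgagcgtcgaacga
In the Cox6a1 window the capital run GCGCATGCGC holds overlapping NRF1 matches on both strands. The Atp5j window lies inside the span annotated for Gabpa (chr16:84834925-84863779 in mm10, GENCODE M21), a gene that encodes a DNA-binding subunit of the ETS-type factor named above. RefSeq gives Atp5j another window, which holds none of the 4 motifs. Windows were found for 65 members and not for the other 16. The NRF1 motif was in 10 of the 65 (15.4%), against 3.05% of 27025 genes with a window and 6.38% of the 6821 of them that were tested here. For GABPA the counts were 16 members (24.6%), 9.93% of genes and 21.3% of tested genes. The YY1 motif was in 7 members (10.8%), 1.64% of genes and 4.19% of tested genes. The ERR motif was in 8 members (12.3%), 5.38% of genes and 4.19% of tested genes. In all, 31 of the 65 held at least 1 of the 4 motifs. Median log2 fold changes of tested members with and without the NRF1 motif were -0.03 and -0.02, and for the other motifs they were -0.01 and -0.03 (GABPA), 0.02 and -0.03 (YY1), and -0.06 and -0.02 (ERR). A match describes these letters in this window only.

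Most members sat at moderate to high levels in every library (plot of FPKM by member). FPKM corrects fragment numbers for gene length and library total, so levels can be compared between genes. Of the 81 members, 77 passed the filter of FPKM at least 1 in at least 3 libraries, and Cox4i2, Cox6b2, Cox8b and Ndufa4l2 did not. Summed over complex I, the level was 863 ± 67.8 FPKM in control and 834 ± 44.1 in cadmium (SD, n = 3 here and below). Complex II summed to 209 ± 8.02 and 209 ± 17.5 FPKM, complex III to 439 ± 50.4 and 425 ± 24.4, complex IV to 759 ± 74.0 and 720.5 ± 56.5, and ATP synthase to 666 ± 84.4 and 652 ± 42.0. In all 5 complexes the group means of the sums differed by less than the larger SD. The order of members by level was close to the same in both groups, with a Spearman rho of 0.996 across the 77 tested genes, which share their libraries and are not independent replicates.

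**Figure D1:**
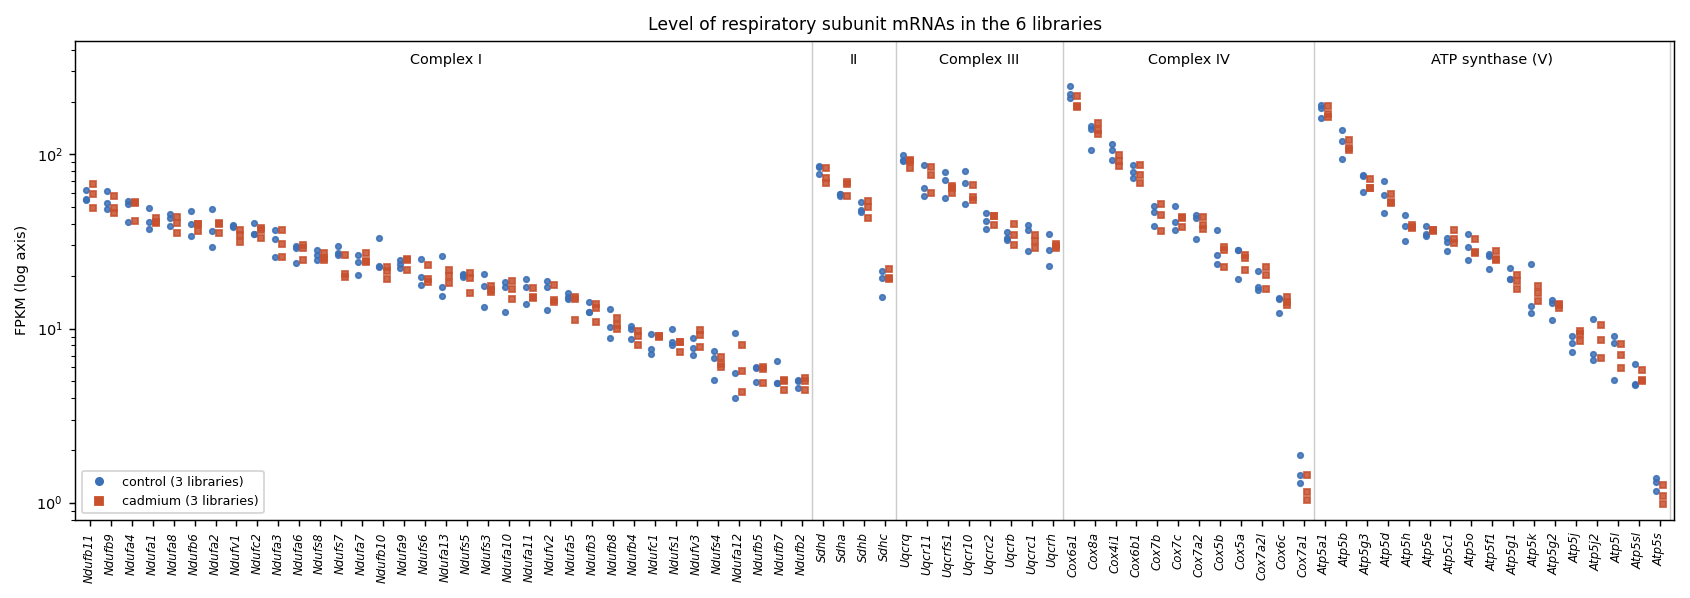
FPKM of 76 of the 77 tested members in every library (log axis), ordered by mean level within complexes I, II, III, IV and ATP synthase; circles are the 3 control libraries and squares the 3 cadmium libraries. Levels run from about 1 FPKM for Cox7a1 and Atp5s to over 200 FPKM for Cox6a1, and in nearly every column the circles and squares overlap.

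After cadmium, 0 of the 77 tested members passed an adjusted p of 0.05 (limma on log2(FPKM + 1), Benjamini-Hochberg over all 9908 genes tested), while 9.68% of all genes tested did. By unadjusted p below 0.05 there was 1 member, Ndufs7, or 1.3% of the members, against 27.0% of all genes. The groups did not overlap in 2 members, Ndufs7 and Ndufv1, both lower in cadmium, which is 2.60% of the members against 7.24% of all genes on that side. No tested member had all cadmium libraries above all controls, a pattern seen in 26.4% of all genes. The members' log2 fold changes ran from -0.33 to 0.16 with quartiles of -0.08 and 0.03, whereas the quartiles of all genes were -0.05 and 0.24 (plot of the spread of changes). The size of the log2 fold change was under 0.5 in every tested member and in 89.6% of all genes.

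**Figure D2:**
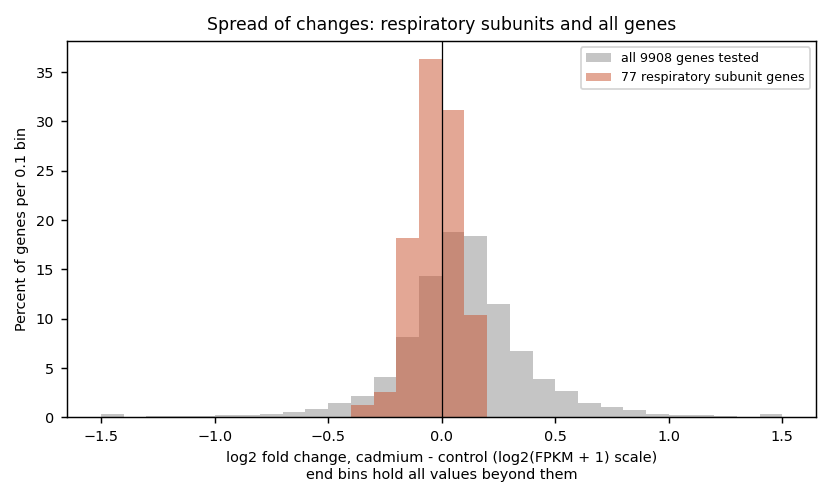
Percent of genes in each 0.1-wide bin of log2 fold change, cadmium minus control, for all 9908 genes tested (grey) and the 77 respiratory subunit genes (orange); the end bins also hold values beyond them. The subunits lie between -0.33 and 0.16, left of the centre of the grey distribution and with a narrower spread.

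The precision behind these values was moderate. The median standard error was 0.14 for members and 0.11 for all genes. The 95% interval of the fold change stayed within 1.5-fold in either direction for 74 of the 77 members and included 0 for 76 (plot of changes with intervals). The lowest lower bound was -0.79 and the highest upper bound 0.75, both for the complex I accessory subunit Ndufa12. That gene also had the widest range over the libraries, 2.36-fold, while Ndufs8 had the narrowest, 1.13-fold, and the median member 1.37-fold. Each interval holds the changes that remained compatible with the 3 libraries per group. The intervals are not adjusted for the number of genes tested, so passing the adjusted p took a larger change than excluding 0.

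**Figure D3:**
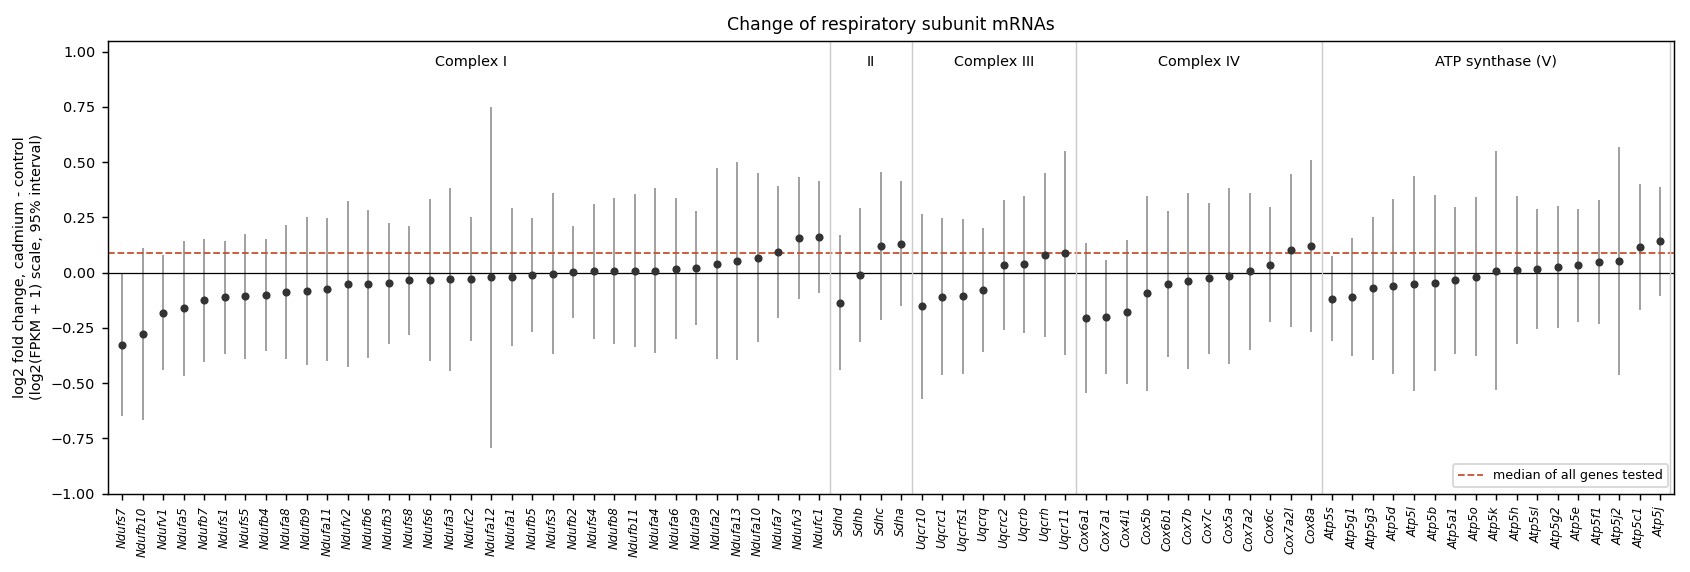
Log2 fold change of 76 of the 77 tested members, cadmium minus control on the log2(FPKM + 1) scale, with its 95% interval from limma, grouped by complex; the dashed line is the median of all 9908 genes tested, at 0.09. Only the interval of Ndufs7 lies wholly below 0, and most points lie below the dashed line.

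As a family the members sat below the typical gene by a small amount. Their median log2 fold change was -0.02 and that of all genes was 0.09, so the difference was -0.11. In bulk tissue fewer cells of a type and less RNA per cell cannot be told apart. Below 0 were 45 of 77 members (58.4%) against 33.3% of all genes, and 9 of 77 lay above the median of all genes. The difference from all genes was -0.12 for complex I, -0.03 for complex II, -0.11 for complex III, -0.12 for complex IV and -0.08 for ATP synthase. Members have shorter exonic length than the typical gene (medians of 1718 and 3714 bases), and within length classes the members' medians were also below those of all genes: -0.03 against 0.04 under 1000 bases, -0.03 against 0.08 from 1000 to under 2000, and -0.01 against 0.10 at 2000 and over.

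Single libraries moved the family by as much as the groups differed. Set against the control mean, the members' median minus that of all genes was -0.10, 0.07 and 0.02 in the controls, by replicate number, and -0.13, -0.17 and -0.02 with cadmium. The groups overlap in this measure, since control replicate 1 lies among the cadmium libraries. Of the 77 members, 41 had their lowest FPKM in control replicate 1 (53.2%, against 36.0% of all genes) and 34 their highest in control replicate 2 (44.2%, against 19.4%). The members' median was -0.11, with 66 negative, without control replicate 1, and 0.03, with 30 negative, without control replicate 2. Without cadmium replicate 2 it was 0.01, with 37 negative. Without both libraries that stood apart, control replicate 1 and cadmium replicate 2, the median was -0.07, 60 members were negative and 0 were called. Leaving out single libraries put the difference from all genes between -0.17 and -0.08. Spread within groups was wider in controls, with a median coefficient of variation of 13.5% for members in control and 8.36% in cadmium, against 12.7% and 9.71% for all genes.

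The size of the members' median depended on the scaling, and its sign did not (plot of medians by scaling). The median of all genes moved from 0.09 in FPKM to -0.06 in the deposited log2 values, -0.002 after median-ratio scaling and -0.01 after quantile normalization. The members' median was -0.20, -0.14 and -0.10 under those scalings, with 76, 72 and 68 of 77 negative. Relative to all genes it stayed between -0.14 and -0.09. In the deposited log2 values 22 members had cadmium libraries all below controls, against 19.2% of all genes. After median-ratio scaling there were 16 (15.2% of all genes) and after quantile normalization 11 (15.1%). With the deposited log2 values limma called 1 member lower, Ndufs7, against 4.98% of all genes.

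**Figure D4:**
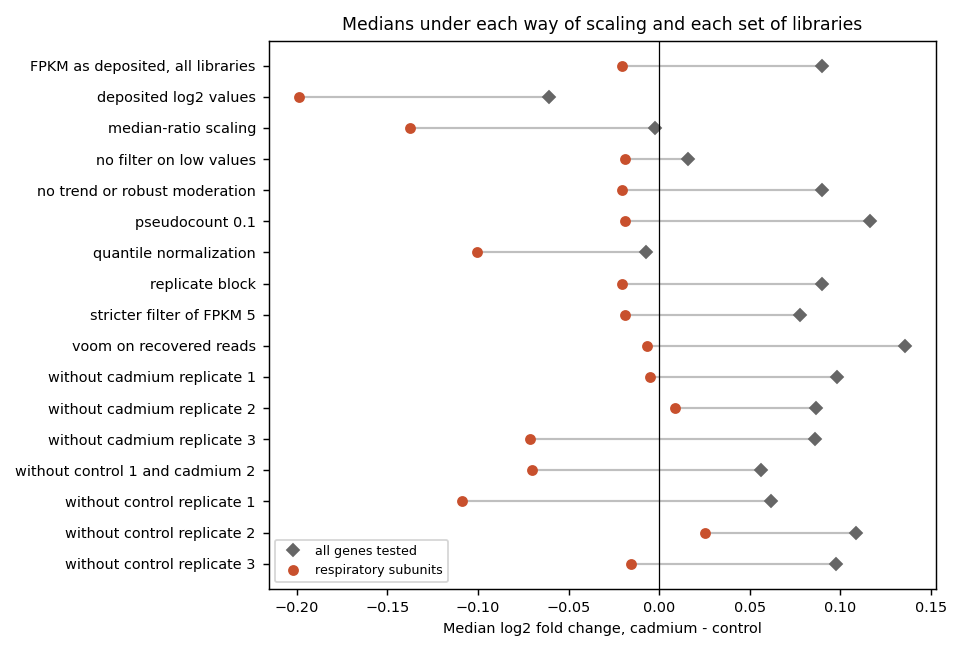
Median log2 fold change, cadmium minus control, of the respiratory subunits (circles) and of all genes tested (diamonds) under each scaling, model setting and set of libraries. The circle lies left of the diamond in every line, and it lies above 0 only without control replicate 2 or cadmium replicate 2.

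Complex I oxidizes NADH through 7 core nuclear subunits and is held together by many accessory ones. All 7 core subunits had a negative log2 fold change, from -0.33 to -0.01 with a median of -0.06, and 16 of 28 accessory subunits did, with a median of -0.02. Ndufs7 (ENSMUSG00000020153, chr10:80249121-80256794 in mm10, GENCODE M21), a core iron-sulfur subunit at the ubiquinone-binding end, had 27.3, 29.9 and 26.6 FPKM in control, listed here and below by replicate number, and 20.5, 26.6 and 19.8 in cadmium. The groups only just separated, since control replicate 3, at 26.62 FPKM, and cadmium replicate 2, at 26.57, were nearly level. Its log2 fold change was -0.33 with a standard error of 0.14 (adjusted p = 0.182 by limma), and -0.52 with the deposited log2 values (adjusted p = 0.0490 by limma). In the other alternatives its adjusted p ran from 0.0852 to 0.477.

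Ndufv1, the NADH-binding flavoprotein subunit, was tight in controls at 38.9, 39.1 and 38.5 FPKM, with 31.2, 37 and 34.4 in cadmium. All 3 cadmium libraries were lower, by a log2 fold change of -0.18 ± 0.11 (SE), and the difference did not pass the test (adjusted p = 0.344 by limma). Ndufb10, an accessory subunit of the membrane arm, had 22.5, 33.3 and 22.9 FPKM in control and 21.5, 19.3 and 22.67 in cadmium. Control replicate 2 stood above the other 5 libraries, which overlapped (log2 fold change -0.28 ± 0.17 SE, adjusted p = 0.331 by limma).

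Other complex I members differed less. Ndufs1, the large iron-sulfur subunit of the NADH-oxidizing arm, had 8.80 ± 1.03 FPKM in control and 8.05 ± 0.626 in cadmium. Ndufb11, the most abundant complex I member, had 62.6, 55.1 and 55.8 FPKM in control and 49.1, 67.5 and 59.1 in cadmium, with overlapping groups. The highest log2 fold changes in the complex were 0.16, in the accessory subunits Ndufc1 (8.01 ± 1.12 and 9.04 ± 0.106 FPKM) and Ndufv3 (7.87 ± 0.897 and 8.91 ± 1.02), and neither passed the test.

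Complex II, succinate dehydrogenase, feeds electrons from the tricarboxylic acid cycle and has no mitochondrially encoded subunit. Its flavoprotein Sdha had 59.6, 59.4 and 57.7 FPKM in control and 57.9, 67.2 and 69.2 in cadmium. The groups overlapped only through cadmium replicate 1 (log2 fold change 0.13 ± 0.12 SE, adjusted p = 0.537 by limma). The iron-sulfur subunit Sdhb, whose promoter window is printed above, had 49.4 ± 3.18 and 49.2 ± 5.51 FPKM. Among the membrane anchors, Sdhd had 76.8, 85.3 and 84.2 FPKM in control and 68.2, 83.4 and 72.8 in cadmium (log2 fold change -0.14 ± 0.13 SE, adjusted p = 0.553), and Sdhc had 18.7 ± 3.18 and 20.3 ± 1.44. The 4 subunits thus had 2 positive and 2 negative values, none beyond the spread between libraries.

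Complex III passes electrons from ubiquinol to cytochrome c, and 4 of its 8 members were negative. Uqcrfs1, the Rieske iron-sulfur protein and a catalytic nuclear subunit of the complex, had 56.6, 71.1 and 78.8 FPKM in control and 59.9, 65.6 and 64.3 in cadmium. The cadmium values lay inside the control range (log2 fold change -0.11 ± 0.15 SE, adjusted p = 0.700 by limma). Uqcr10, a small accessory subunit, had 52.2, 80.1 and 68.9 FPKM in control and 57.3, 54.9 and 66.3 in cadmium, again inside the control range (adjusted p = 0.634 by limma). The core proteins Uqcrc1 (34.7 ± 5.93 and 31.9 ± 2.67 FPKM) and Uqcrc2 (41.7 ± 4.50 and 42.6 ± 2.64) had opposite signs. Uqcrq was the most abundant member of the complex at 94.6 ± 3.69 and 89.5 ± 4.82 FPKM.

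Complex IV, cytochrome c oxidase, has a mitochondrially encoded core surrounded by nuclear subunits, and 8 of its 12 tested members were negative. Cox6a1 (ENSMUSG00000041697, chr5:115345642-115348981), the liver form of a regulatory subunit and the most abundant member of all, had 223, 248 and 212 FPKM in control and 187, 190 and 216 in cadmium. Only cadmium replicate 3 reached into the control range (log2 fold change -0.21 ± 0.15 SE, adjusted p = 0.413 by limma). Cox4i1, the widely expressed form of the largest nuclear subunit, had 92.4, 115 and 106 FPKM in control and 86.0, 91.9 and 98.7 in cadmium. Control replicate 1 lay among the cadmium libraries (log2 fold change -0.18 ± 0.14 SE, adjusted p = 0.463 by limma). Cox5a had 25.2 ± 5.18 and 24.6 ± 2.46 FPKM and Cox5b 28.9 ± 7.19 and 26.7 ± 3.57, and Cox8a, the second most abundant member of the complex, had 130 ± 21.8 and 141 ± 10.3.

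Several complex IV and ATP synthase subunits exist as isoforms from separate genes, and the liver forms dominated in both groups (plot of isoform levels). Cox7a2 had 40.2 ± 6.58 and 40.1 ± 3.35 FPKM, above the muscle and heart form Cox7a1 at 1.54 ± 0.300 and 1.21 ± 0.205 (adjusted p = 0.293 by limma for the change of Cox7a1). Cox7a2l, which helps join complexes III and IV into supercomplexes, had 18.5 ± 2.63 and 19.9 ± 2.83 FPKM. Cox6b1 had 79.8 ± 6.78 and 77.2 ± 9.28 FPKM while the testis form Cox6b2 had 0.136 ± 0.0871 and 0.0541 ± 0.0469. Cox8b, the muscle form beside Cox8a, was listed at 0 in 5 libraries and at 0.0405 FPKM in cadmium replicate 2. Cox7b had 45.4 ± 5.88 and 44.4 ± 8.03 FPKM.

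Cox4i2, an oxygen-responsive isoform best known from lung, was listed at 0 in the 3 controls and had 0.122, 0.0867 and 0.108 FPKM in cadmium, or 18 reads in all. Against a floor of 3 reads over the control group, its cadmium level was 5.16-fold higher relative to the group read totals. That ratio allows for counting error in the controls only and takes the 18 cadmium reads as exact. Cox4i2 did not reach the level needed for the main test. The deposited table of the authors gives it an FDR of 0.10. Ndufa4 had 48.9 ± 6.90 and 49.2 ± 6.64 FPKM, while its low-level relative Ndufa4l2, known as a hypoxia-induced gene, had 0.601, 0.402 and 0.361 FPKM in control and 1.07, 0.572 and 0.809 in cadmium. The Ndufa4l2 groups overlapped, and the authors' deposited table gives an FDR of 0.462. Even in cadmium these minor isoforms stayed far below Cox4i1 and Ndufa4.

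**Figure D5:**
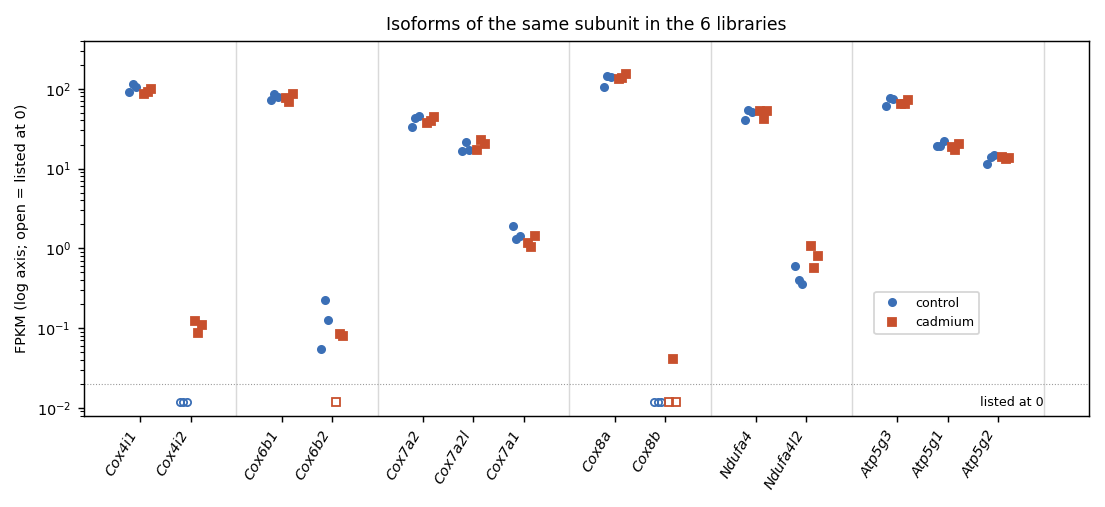
FPKM (log axis) of isoforms of the same subunit in each library; circles are control, squares cadmium, and open symbols under the dotted line mark values listed at 0. The Cox4i1, Cox6b1, Cox7a2, Cox8a and Ndufa4 points lie far above those of Cox4i2, Cox6b2, Cox7a1, Cox8b and Ndufa4l2, and Cox4i2 has values above 0 in the 3 cadmium libraries only.

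ATP synthase couples a catalytic head to a rotating ring of subunit c, and 8 of its 17 members were negative. The alpha subunit Atp5a1 had 162, 192 and 185 FPKM in control and 165, 171 and 189 in cadmium, so the cadmium values lay inside the control range (log2 fold change -0.03 ± 0.14 SE, adjusted p = 0.908 by limma). The catalytic beta subunit Atp5b had 94, 138 and 120 FPKM in control and 107, 109 and 121 in cadmium, also inside the control range. The gamma subunit Atp5c1, the rotating shaft, had 30.7 ± 2.63 and 33.5 ± 2.99 FPKM. The 3 genes that encode the same mature subunit c kept their order, with Atp5g3 at 70.8 ± 8.64 and 67.1 ± 4.71 FPKM, Atp5g1 at 20.2 ± 1.71 and 18.6 ± 1.62, and Atp5g2 at 13.3 ± 1.80 and 13.5 ± 0.340. Atp5j, a stalk subunit, had the highest log2 fold change of the complex, 0.14 ± 0.11 (SE), at 8.21 ± 0.899 and 9.13 ± 0.567 FPKM (adjusted p = 0.437 by limma). Atp5s, named as a coupling factor and not a subunit, had the smallest p of the names in this group (1.29 ± 0.110 and 1.11 ± 0.141 FPKM, adjusted p = 0.406 by limma). Reads of Atp5k, Atp5l and Uqcrh may be shared with pseudogenes, and those of Atp5j with Gabpa if strand was not used, so their values are less certain.

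The authors' deposited table, whose test is not given in the sources used here, lists an FDR below 0.05 for 5 of the 81 members, all lower in cadmium: Ndufs7 (0.00689), Ndufb10 (0.0237), Cox6a1 (0.0312), Ndufv1 (0.0330) and Cox4i1 (0.0453). That is 6.17% of the members, against 3.15% of the 34352 genes in that table and 9.35% of the genes tested here. The share of members was taken over all 81, also those below the filter, and genes were not matched for level. The authors' table lists 0 members as higher at that FDR. Negative log2 fold changes are given in the authors' deposited table for 76 of the 77 tested members, against 58.7% of the tested genes, with medians of -0.20 and -0.06. These fold changes are the group differences of the deposited log2 values used above, so they repeat that result and add no separate evidence.

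Other mitochondrial genes were counted from lists of assembly factors, regulators and mitochondrially encoded subunits, beside 1.82% of all genes called lower and 7.86% called higher. Among 45 tested assembly factors, which build the complexes without staying in them, 2 were called lower and 0 higher, and the median differed from that of all genes by -0.05. Ndufaf4, an assembly factor of complex I, had 3.30, 3.46 and 5.04 FPKM in control and 1.43, 1.96 and 1.37 in cadmium, and fell by 0.92 on the log2 scale (SE 0.15, adjusted p = 0.0159 by limma). Coa6, which serves copper delivery to complex IV, fell from 18.0 ± 2.34 to 11.9 ± 0.841 FPKM (log2 fold change -0.55, adjusted p = 0.0370). With the batch number as a replicate block the adjusted p was 0.0633 for Ndufaf4 and 0.0961 for Coa6, and without the filter on low values it was 0.0972 and 0.114. The Ndufaf4 call was lost without cadmium replicate 1 (adjusted p = 0.0620) or 3 (0.0720), and the Coa6 call when control replicate 2 (0.0875), control replicate 3 (0.106) or any cadmium library (0.0862 to 0.126) was left out.

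Of 14 tested regulators, 1 was called lower and 0 higher, and the median differed from that of all genes by -0.14. Pprc1, a coactivator of respiratory genes, reached the filter of FPKM 1 in every control library but, with cadmium, in replicate 2 only. It fell from 1.46 ± 0.111 to 0.895 ± 0.183 FPKM (log2 fold change -0.38, adjusted p = 0.0433 by limma). This call ended with the replicate block (adjusted p = 0.0970), without the filter on low values (0.122), without trend or robust moderation (0.0589), and when any control library (adjusted p from 0.0709 to 0.117), cadmium replicate 1 (0.125) or cadmium replicate 3 (0.155) was left out. Mtor, a kinase that promotes cell growth and mitochondrial activity, had 5.86, 5.72 and 5.58 FPKM in control and 6.74, 7.54 and 7.59 in cadmium. All its cadmium libraries were higher, and it did not pass the test (log2 fold change 0.30, adjusted p = 0.0668 by limma). Esrra, the nuclear receptor that binds the ERR motif, had 6.75, 5.81 and 6.22 FPKM in control and 3.44, 5.57 and 3.48 in cadmium. All its cadmium libraries were lower, and it did not pass the test (log2 fold change -0.51, adjusted p = 0.0886 by limma). Esrra passed without cadmium replicate 2 (0.0224), without both control replicate 1 and cadmium replicate 2 (0.0224), and with the deposited log2 values (0.0436). Ppargc1a, the best-known coactivator of mitochondrial biogenesis, had 1.27 ± 0.119 and 1.41 ± 0.0512 FPKM (adjusted p = 0.502), and the mitochondrial transcription factor Tfam 3.86 ± 0.533 and 3.65 ± 0.236 (0.770, both by limma). Gabpa had 3.92 ± 0.289 and 4.39 ± 0.0757 FPKM, and Nrf1, which was below the filter, 0.687 ± 0.0213 and 0.726 ± 0.0828.

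The 13 mitochondrially encoded subunits, the partners of the members inside complexes I, III, IV and ATP synthase, had 0 calls and a median -0.003 from that of all genes. They varied far more between libraries than the nuclear members: mt-Co3, a core subunit of complex IV, had 477, 1098 and 1128 FPKM in control and 1331, 643 and 1304 in cadmium. The libraries low in mt-Co3 were control replicate 1 and cadmium replicate 2, the same ones that were low in mt-Rnr2.

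Markers of other liver cells moved with cadmium. Stellate cell and fibroblast markers were called higher in 7 of 8 tested cases, and the summed level of the list was 14.4 to 21.6 FPKM in control and 34.4 to 38.8 in cadmium. Of 12 Kupffer cell and macrophage markers 5 were called higher and 1 lower (sums of 52.6 to 89.7 and 108 to 124 FPKM), and of 8 endothelial markers 2 were called higher (25.8 to 37.4 and 36.2 to 47.8). Hepatocyte markers had 1 call higher and 0 lower among 11, with a median 0.03 above that of all genes. No marker of these 4 lists was at 0 in all libraries. The part of these cells in the members' shift of -0.11 was not tested.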

How the data were processed

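The authors' first deposited table holds FPKM for 55335 genes by identifier. A second table, with symbols and log2 values for 34352 genes, also holds what the authors deposited as their log2 fold change, p-value and FDR. The submitters' processing notes name DESeq2 4.1.0, MACS2 2.1.1, SAMtools 1.3.1, STAR 2.7.1a and cutadapt 1.1.8 with the mm10 genome, and give no roles. Neither the counter and annotation nor the test is given in the sources used here. Undoing log2 and subtracting 1 gave whole multiples of 1 step per library for 100% of values within 0.05, which gave the recovered reads.

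The main test was limma 3.58.1 (R 4.3.3), two-sided, with trended and robust variances, applied to log2(FPKM + 1) of the 9908 genes reaching FPKM 1 in 3 or more libraries. Benjamini-Hochberg adjusted p-values were called at 0.05. The log2 scale with a pseudocount of 1 understates changes of low genes. The fit was tested on simulated data. FPKM are shares of a library total, so abundant RNAs move all other genes.

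The batch number in the labels pairs 1 control with 1 cadmium library. Deviations of same-numbered libraries correlated at -0.21, -0.23 and -0.02, and those of other control-cadmium pairs at -0.10 to 0.28. The number as a block was an alternative, beside median-ratio and quantile scaling, the deposited log2 values, a pseudocount of 0.1, no filter, a filter of FPKM 5, no trend or robust moderation and leaving libraries out. Limma's voom on recovered reads was chosen after seeing the data. Members, gene lists and tests were chosen with earlier results of these data known. Named members are, in each complex, the 2 of smallest p and the most abundant, with catalytic subunits and isoform families, and of each list up to 2 genes of smallest p. Ndufc1, Ndufv3, Ndufa12, Ndufs8 and Gabpa were named after their values were seen. Values of 1 member are not reported here, though counts, sums and medians include it. Coordinates are GENCODE M21, exonic lengths are exon unions, and promoter windows are from RefSeq.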

Additional observations from a re-analysis of the deposited data

How the results depend on the processing

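In all 16 alternatives 0 members were called, except that the deposited log2 values gave 1 call, Ndufs7, lower in cadmium. The members' median relative to all genes was below 0 in every alternative, from -0.17 to -0.03, the latter without the filter on low values, where 34351 genes were tested. Of 77 tested members, those whose groups did not overlap numbered 22 with the deposited log2 values, 16 with median-ratio scaling and 11 with quantile normalization. In that order, 31.0%, 31.1% and 30.0% of all genes did not overlap in either direction. Without control replicate 1 and cadmium replicate 2 there were 21 such members, where groups are smaller and 58.4% of all genes did not overlap. Leaving out single libraries gave 4 to 17 of them, while 38.4% to 46.1% of all genes did not overlap. With the replicate block 0 members were called, 45 were negative and the relative median was -0.11. Of 34 named members tested, 18 changed sign in at least 1 alternative without a call in either. The cause of these differences was not tested, and leaving libraries out also makes the groups smaller.

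With 3 libraries per group the median 95% interval of a member reached 0.33 to either side on the log2 scale. Smaller changes could not be told from 0 even without adjustment over genes. Passing an adjusted p of 0.05 took a larger change: Ndufs7, at -0.33, had an adjusted p of 0.182 by limma. The 4 members below the FPKM filter were not in the main test. Groups of 3 libraries are too small for a search for single outlying values.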

Other observations

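Electron carriers and neighbouring enzymes were counted beside the same background. Of 12 tested electron carriers and adenine nucleotide exchange genes, 0 were called in the main comparison. Cycs, which encodes cytochrome c, had 6.63, 8.60 and 9.57 FPKM in control and 6.31, 5.28 and 5.83 in cadmium, with all cadmium libraries below controls (log2 fold change -0.43, adjusted p = 0.0896 by limma). Cycs passed with the deposited log2 values (adjusted p = 0.0161 by limma) and with median-ratio scaling (0.0458). It also passed without control replicate 1 (0.0310) and without both control replicate 1 and cadmium replicate 2 (0.0490). Ucp2, an uncoupling protein family member, had 2.00 ± 0.492 and 3.21 ± 0.352 FPKM (adjusted p = 0.0544), and passed with voom on recovered reads (0.0290), an alternative chosen after seeing the data, and without control replicate 2 (0.0320).

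Of 16 tricarboxylic acid cycle genes 1 was called lower and 0 higher. Idh3a, a catalytic subunit of NAD-dependent isocitrate dehydrogenase, fell from 4.78 ± 0.859 to 2.78 ± 0.631 FPKM (log2 fold change -0.61, adjusted p = 0.0492 by limma), a call that ended with the replicate block (0.0875), with a pseudocount of 0.1 (0.0510), without trend or robust moderation (0.0635), without the filter on low values (0.176), and when control replicate 2 (0.116), control replicate 3 (0.134), cadmium replicate 1 (0.140) or cadmium replicate 3 (0.166) was left out. Cs, citrate synthase, had 9.64, 10.5 and 11.1 FPKM in control and 16.4, 12.6 and 13.5 in cadmium, all above the controls (adjusted p = 0.0813 by limma). Of 10 supercomplex and cristae factors 0 were called. The remaining marker lists had few or no calls: 0 of 5 erythroid markers, 0 of 1 cholangiocyte marker and 0 of 1 pancreas marker, while T, B and NK cell and adipocyte markers had 0 tested genes, with sums of at most 1.67 and 0.701 FPKM.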
